A study of Mus musculus with 5 samples.

Results

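The genes described here serve the folding of proteins in the endoplasmic reticulum and the stress response that watches over it. They were 31 genes listed by symbol, a list drawn up with earlier results of these arrays known. Each was read from its brightest probe set, the one with the highest mean over the 5 arrays, in the platform's probe-to-gene table. All 31 were found, among 19937 genes with a symbol of their own on the array. Of the 31, 30 had a mean at or above the level filter, a log2 signal of 5.76, as did 11502 genes in all. The exception was Ern1.

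The endoplasmic reticulum receives secreted and membrane proteins as they are made, and chaperones and disulphide isomerases in its lumen fold them there. When unfolded proteins build up, the membrane sensors ATF6, IRE1 and PERK start the unfolded protein response. ATF6 is cut to release a transcription factor, and IRE1 splices the Xbp1 messenger RNA into the form that encodes active XBP1. PERK slows translation by phosphorylating eIF2alpha, which favours translation of ATF4. ATF6 and XBP1 mainly raise chaperones and degradation factors, whereas ATF4 raises genes of amino acid supply and of the stress-induced death programme. The 31 genes were placed in 5 role groups: 3 sensors, Xbp1 as the spliced factor, 8 genes of the PERK arm, 14 chaperones and folding factors, and 5 genes of degradation and translocation.

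The arrays came from an RNA immunoprecipitation (RIP) of MKRN1, a RING-type zinc finger protein that binds RNA, in R1 mouse embryonic stem cells of 129X1 x 129S1 background. The groups, with 1 array each, were an anti-FLAG RIP from FLAG:MKRN1 cells, an anti-FLAG RIP from FLAG:Ctrl cells (the FLAG:Ctrl RIP), a RIP with IgG from FLAG:MKRN1 cells (the IgG RIP), and an input of each line, FLAG:MKRN1 and FLAG:Ctrl. Both lines were G418-resistant clones kept in LIF and serum, and both carried a FLAG construct under the constitutive pCAGGS promoter, with MKRN1 fused to the tag in one and the tag alone in the other. Input was total RNA of the lysate before precipitation, and per the labels the FLAG:Ctrl RIP and the IgG RIP were controls for background recovery. With 1 array a group there is no replicate error, so every difference below is a single difference of log2 signal, with no test and no p-value, described against a mark of 2-fold (a log2 difference of 1).

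Mkrn1 did not separate the lines, with a log2 signal of 11.71 in the FLAG:MKRN1 input, against 11.80 for FLAG:Ctrl input. In the MKRN1-labelled RIP it stood at -0.30 against the FLAG:Ctrl RIP and at -0.10 against the IgG RIP. It is not known whether this probe set also reads RNA made from the construct. The anti-FLAG RIP from FLAG:MKRN1 cells is therefore called the MKRN1-labelled RIP, and directions rest on that label. Its array stood apart from the others, with Pearson's r across probe sets of 0.959 to 0.967 with each of them, against at least 0.982 among the other 4. All 10 embryonic stem cell markers examined, among them Pou5f1, Nanog and Sox2, were above the level filter. Of 10 markers of feeder fibroblasts, 6 were above it and Pdgfrb, Lum, Dcn and Postn were below it. In bulk RNA, fewer cells of a type and less RNA per cell cannot be told apart.

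The promoters of several members carry a shared DNA element, shown first because it is read from sequence and not from the arrays. The ER stress response element, bound by ATF6 and by XBP1 together with the CCAAT-binding factor NF-Y, was searched as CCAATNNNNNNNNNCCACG on both strands. The windows ran from 250 bases before to 50 after each annotated start, as given by RefSeq for GRCm38.p6. They are reference sequence, not sequence of the R1 cells, and 27 of the 31 members were in the table (not Atf6, Hyou1, Hspa13 or Manf). The element occurred in 6 of 11 chaperone windows, in Syvn1, and in none of the 8 PERK arm genes. Over all 27025 genes of the table, 0.137% had it. The chaperones were grouped as targets of ATF6 or XBP1, so this contrast is not independent of how the groups were chosen. The sites follow in the 5′ to 3′ direction of the element, with its fixed letters in capitals, for the 7 members that hold one.
Hspa5 (chr2:34772025-34772043, plus strand): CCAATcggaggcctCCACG
Hsp90b1 (chr10:86705638-86705656, minus strand): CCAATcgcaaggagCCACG
Hsp90b1 (chr10:86705533-86705551, plus strand): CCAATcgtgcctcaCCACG
Calr (chr8:84847075-84847093, plus strand): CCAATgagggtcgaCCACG
Pdia6 (chr12:17266491-17266509, plus strand): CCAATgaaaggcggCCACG
Dnajc3 (chr14:118937827-118937845, plus strand): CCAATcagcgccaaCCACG
Creld2 (chr15:88819520-88819538, minus strand): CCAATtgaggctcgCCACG
Syvn1 (chr19:6046532-6046550, plus strand): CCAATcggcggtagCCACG
Their far edge lay between 44 and 212 bases before the start. The 9 bases between the fixed ends differed at every site.

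The PERK arm had a different element. The site bound by ATF4 with a C/EBP partner, searched as TGATGNAA on both strands, was found in 4 of 8 PERK arm windows (Atf3, Trib3, Chac1 and Asns) and in Herpud1. It was in none of the 11 chaperone windows, and 4.51% of all genes had it. The XBP1 element TGACGTGG was in no member's window and in 0.714% of genes. The PERK arm was likewise grouped as targets of PERK, so its contrast with all genes is not independent of that choice. Such matches are a description of these letters and show neither binding nor a cause.

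The upstream windows of 3 members that were low or high in the MKRN1-labelled RIP are printed. Each is the 250 bases before the start, 5′ to 3′ on the gene's own strand. Capitals mark every CCAAT or CCACG box, read on either strand. Dnajc3 was among the lowest members in the MKRN1-labelled RIP, and Ddit4 and Trib3 were the highest of the 30 by the smaller of their differences from the control RIPs, although Atf3 and Chac1 exceeded Trib3 against the IgG RIP.
Dnajc3 (chr14:118937682-118937931, plus strand): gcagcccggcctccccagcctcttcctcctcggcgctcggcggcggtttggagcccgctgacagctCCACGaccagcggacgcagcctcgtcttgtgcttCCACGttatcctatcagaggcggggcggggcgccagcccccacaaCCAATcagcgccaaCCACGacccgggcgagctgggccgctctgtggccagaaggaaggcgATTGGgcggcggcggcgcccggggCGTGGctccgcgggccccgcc
Ddit4 (chr10:59951771-59952020, minus strand): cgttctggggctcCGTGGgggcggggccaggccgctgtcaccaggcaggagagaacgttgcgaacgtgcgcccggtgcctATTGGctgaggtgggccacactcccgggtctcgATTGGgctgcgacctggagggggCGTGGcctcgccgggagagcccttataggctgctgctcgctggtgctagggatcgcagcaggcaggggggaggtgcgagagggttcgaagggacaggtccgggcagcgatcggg
Trib3 (chr2:152344061-152344310, minus strand): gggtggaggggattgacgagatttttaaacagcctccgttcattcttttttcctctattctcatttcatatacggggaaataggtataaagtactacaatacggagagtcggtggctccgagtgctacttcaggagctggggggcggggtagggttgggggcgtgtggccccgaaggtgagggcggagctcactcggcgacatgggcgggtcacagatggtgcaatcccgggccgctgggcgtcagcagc
Dnajc3 had 2 CCAAT and 4 CCACG boxes in these bases, of which 1 pair is spaced as the stress element. Ddit4 had 2 of each, none so spaced, and Trib3 had neither. The ATF4 match of Trib3 starts at base 15 of the transcribed part and so is not shown.

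The role groups held different positions in the MKRN1-labelled RIP. All 14 chaperones and folding factors lay below both control RIPs, whereas of the 8 PERK arm genes only Asns did and 4 lay above both. Of the 11502 genes kept, 44.4% lay below both, and 3975 lay above both. The chaperones had a median log2 difference of -0.57 from the FLAG:Ctrl RIP, and one of -0.49 from the IgG RIP. The PERK arm had medians of 0.02 and 0.30, and all genes had -0.03 and -0.00. Both differences rest on the same MKRN1-labelled array, so they are not independent. With arrays centred on the median of all probe sets, 4 of the 8 PERK arm genes and all 14 chaperones lay below both control RIPs, as did 70.4% of all genes.

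Signal level moved with this result. With the kept genes cut into 3 equal parts by mean signal, the medians over all genes of the brightest part were -0.30 and -0.29, and 10 of the 14 chaperones fell in it. The trend of the difference with signal level was also removed, a setting chosen after the data were seen. There, 11 of 14 chaperones lay below both control RIPs, as did 44.2% of all genes, and the chaperone medians were -0.37 and -0.28. The part of signal level in the chaperone differences was not tested.

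**Figure D1:**
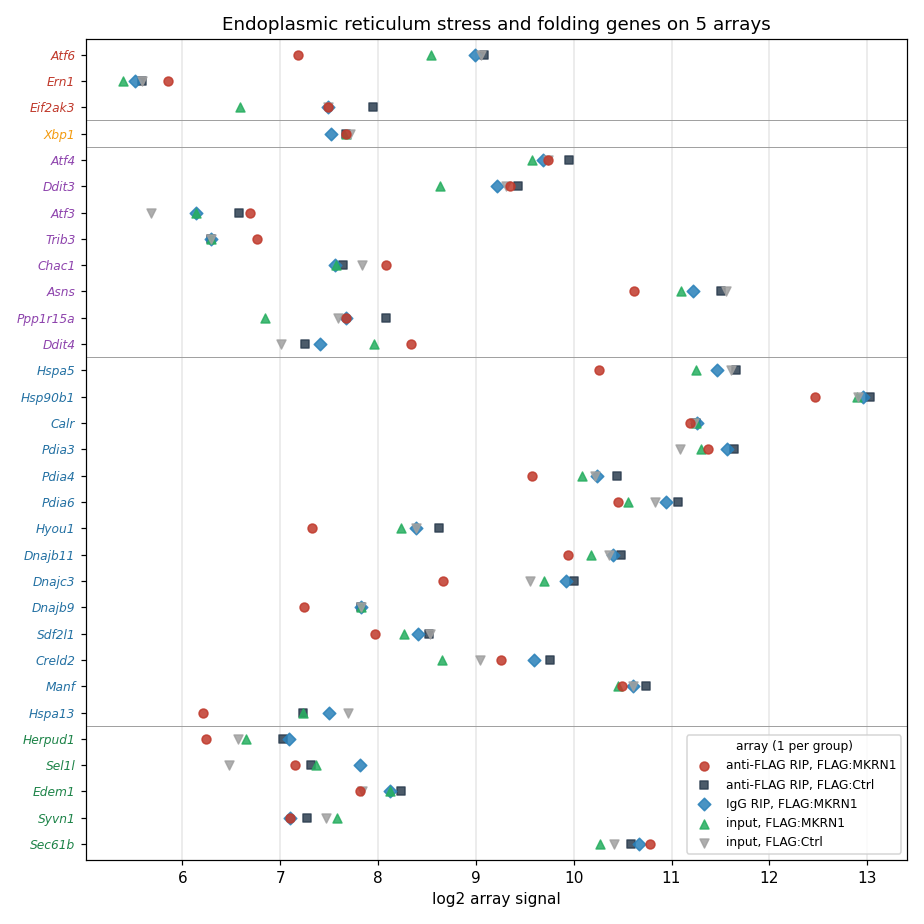
Log2 array signal (horizontal axis) of the 31 genes, 1 point per array, with names coloured and ruled off by role group: from the top, sensors, Xbp1, PERK arm, chaperones and folding, degradation and translocation. The MKRN1-labelled RIP (red) lies left of both control RIPs for all 14 chaperones and for Atf6, Eif2ak3, Asns, Herpud1, Sel1l and Edem1. For Eif2ak3 the difference from the IgG RIP is only -0.0051. The MKRN1-labelled RIP lies right of both for Ddit4, Trib3, Chac1, Atf3, Sec61b and Ern1.

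The call "lower" required a signal at least 2-fold under each control RIP and also under the FLAG:MKRN1 input, and "higher" the mirror image. Of the 30 members kept, 5 were called lower, or 16.7%, against 5.36% of all genes. They were Atf6, Dnajc3, Hspa5, Hyou1 and Hspa13. No member was called higher, against 1.09% of all genes. The count of 5 became 2 after quantile normalization (Atf6 and Hspa13), or 6.67%, against 3.61% of all genes. It was 3 with arrays centred on the median of the kept genes, or 10%, against 3.52%. With the trend with signal level removed it was 1 (Atf6), or 3.33%, near the 2.81% of all genes. In each of these 3 settings Ddit4 was called higher, as were 183, 190 and 178 of all genes in turn.

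Among the sensors, Atf6 stood out. Its signal was 7.19 in the MKRN1-labelled RIP, against 9.08 in the FLAG:Ctrl RIP, 8.99 in the IgG RIP, 8.54 in the FLAG:MKRN1 input, and 9.05 for FLAG:Ctrl input. The MKRN1-labelled RIP was the low array, 3.73-fold under the FLAG:Ctrl RIP and 3.50-fold under the IgG RIP, and it lay below each of the other 4 arrays. With 1 array a group, these values have no spread. The share of all genes with this array lowest was not counted. Atf6 was called under every scaling tried, with scores from -1.98 to -1.39. The score of a gene is whichever of its control RIP differences is nearer 0, and is 0 if they point opposite ways.

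The other sensors did not follow Atf6. Eif2ak3, which encodes PERK, was 7.48 in the MKRN1-labelled RIP, 7.95 in the FLAG:Ctrl RIP, 7.49 in the IgG RIP, 6.58 in the FLAG:MKRN1 input, and 7.49 for FLAG:Ctrl input. Here the FLAG:MKRN1 input was the low array and the MKRN1-labelled RIP lay level with the IgG RIP. Ern1, which encodes IRE1, had 5.85 in the MKRN1-labelled RIP, 5.59 in the FLAG:Ctrl RIP, 5.51 in the IgG RIP, 5.40 in the FLAG:MKRN1 input, and 5.59 for FLAG:Ctrl input. It lay 0.27 and 0.34 above the control RIPs, at a mean below the level filter.

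Xbp1, the target of IRE1 splicing, was flat. It had 7.67 in the MKRN1-labelled RIP, 7.67 in the FLAG:Ctrl RIP, 7.52 in the IgG RIP, 7.67 in the FLAG:MKRN1 input, and 7.72 for FLAG:Ctrl input. Its value was equal (within 1e-06) on 3 of the arrays. Such equal values occurred between at least 1 pair of arrays for 12 of the 31 members, and Trib3 and Dnajb9 had equal values on all 4 arrays other than the MKRN1-labelled RIP. The probe set gives 1 value for the gene and does not separate spliced from unspliced Xbp1.

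The lowest chaperones included the central one of the organelle. Hspa5, which encodes BiP, the Hsp70 chaperone that also holds the sensors inactive, was 10.26 in the MKRN1-labelled RIP, against 11.66 in the FLAG:Ctrl RIP, 11.47 in the IgG RIP, 11.25 in the FLAG:MKRN1 input, and 11.61 for FLAG:Ctrl input. It was 2.64-fold and 2.31-fold below the control RIPs. Hyou1, the Hsp110-type exchange factor that reloads BiP with ATP, was 7.32 in the MKRN1-labelled RIP, against 8.62 in the FLAG:Ctrl RIP, 8.39 in the IgG RIP, 8.23 in the FLAG:MKRN1 input, and 8.39 for FLAG:Ctrl input, or 2.46-fold and 2.10-fold below the control RIPs. For both genes the MKRN1-labelled RIP was below every other array, an order not counted over all genes.

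Dnajc3 and Hspa13 were the other called members of the group. Dnajc3 encodes P58IPK, a J-domain cochaperone of BiP. Its signal was 8.67 in the MKRN1-labelled RIP, against 10.00 in the FLAG:Ctrl RIP, 9.92 in the IgG RIP, 9.69 in the FLAG:MKRN1 input, and 9.56 for FLAG:Ctrl input. It was 2.53-fold and 2.39-fold below the control RIPs, which here lay above their inputs. Hspa13, an Hsp70 relative of microsomes, was 6.22 in the MKRN1-labelled RIP, against 7.23 in the FLAG:Ctrl RIP, 7.50 in the IgG RIP, 7.23 in the FLAG:MKRN1 input, and 7.69 for FLAG:Ctrl input. Its score of -1.01 was the one nearest the mark among the 5, and became -0.55 with the input of each lysate subtracted first.

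Other J-domain proteins of the lumen were lower without reaching 2-fold. Dnajb9, or ERdj4, was 7.24 in the MKRN1-labelled RIP and 7.83 on each other array. Dnajb11, or ERdj3, stood at -0.54 against the FLAG:Ctrl RIP and at -0.46 against the IgG RIP. Sdf2l1, which works with ERdj3, stood at -0.55 and -0.44.

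The disulphide isomerases were spread. Pdia4 stood at -0.87 against the FLAG:Ctrl RIP and at -0.66 against the IgG RIP, Pdia6 at -0.61 and -0.49, and Pdia3, which folds glycoproteins with calreticulin, at -0.27 and -0.19. The dimmer probe set of Pdia4, whose mean was 4.21, was nearly flat at -0.02 and 0.03. Calr, which encodes calreticulin, was 11.19 in the MKRN1-labelled RIP and between 11.23 and 11.26 on every other array, the smallest difference in the group. Its promoter holds the same element as that of Dnajc3, and a relation of the element to RIP signal was not tested.

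Hsp90b1, which encodes GRP94, was 12.47 in the MKRN1-labelled RIP, against 13.03 in the FLAG:Ctrl RIP, 12.96 in the IgG RIP, 12.89 in the FLAG:MKRN1 input, and 12.91 for FLAG:Ctrl input. Creld2, a disulphide exchange factor induced by stress, stood at -0.51 against the FLAG:Ctrl RIP and at -0.34 against the IgG RIP. Manf, a secreted protein that binds BiP, stood at -0.25 and -0.12. In the values as deposited, all 14 genes of the group thus lay on the low side of both control RIPs, and 4 of them passed the mark.

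The PERK arm had 4 genes above and 4 below the FLAG:Ctrl RIP, while against the IgG RIP 6 lay above and 1 below. Ddit4, which encodes the mTOR inhibitor REDD1, was the highest member. It was 8.34 in the MKRN1-labelled RIP, against 7.25 in the FLAG:Ctrl RIP, 7.40 in the IgG RIP, 7.96 in the FLAG:MKRN1 input, and 7.01 for FLAG:Ctrl input. It exceeded the FLAG:Ctrl RIP 2.13-fold and the IgG RIP 1.92-fold. The FLAG:MKRN1 input was itself 0.95 above the FLAG:Ctrl input, and with each lysate's input subtracted first the score of Ddit4 was 0.14.

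Asns lay at the other end. This asparagine synthetase gene, a target of ATF4 that answers amino acid shortage, was 10.62 in the MKRN1-labelled RIP, against 11.51 in the FLAG:Ctrl RIP, 11.22 in the IgG RIP, 11.10 in the FLAG:MKRN1 input, and 11.56 for FLAG:Ctrl input. Trib3, a pseudokinase induced by ATF4 and CHOP, was 6.76 in the MKRN1-labelled RIP and 6.30 on each other array. Chac1, which degrades glutathione, was 8.08 in the MKRN1-labelled RIP and between 7.56 and 7.84 elsewhere. Asns thus lay below both control RIPs, and Trib3 and Chac1 above both. All 3 windows hold the ATF4 element, and a relation of that element to RIP signal was not tested.

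The transcription factors of the arm stayed under the 2-fold mark. Atf4 itself lay -0.21 from the FLAG:Ctrl RIP, but 0.05 from the IgG RIP. Ddit3, which encodes the death-promoting factor CHOP, lay at -0.08 and 0.14. Atf3, a stress-induced repressor, was at 0.11 and 0.56, with control RIPs 0.45 apart. Ppp1r15a, or GADD34, which directs the phosphatase that removes the phosphate from eIF2alpha, lay at -0.41 and 0.00.

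**Figure D2:**
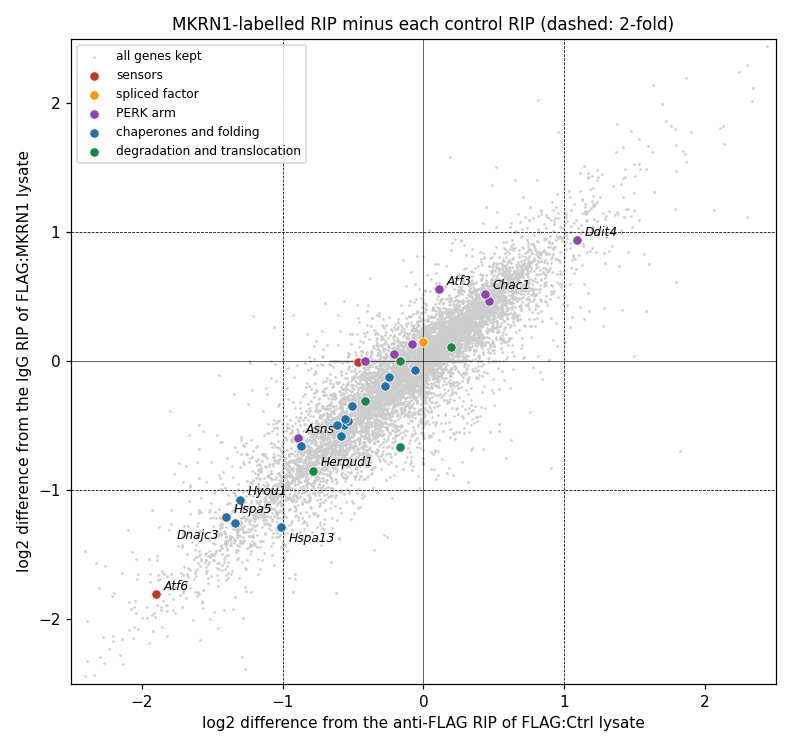
Log2 difference of the MKRN1-labelled RIP from the FLAG:Ctrl RIP (horizontal) and from the IgG RIP (vertical) for the 30 members kept, coloured by role group, over all 11502 genes kept in grey, 22 of which lie outside the limits of 2.5. The 5 called members lie in the lower left corner beyond both dashed lines at 2-fold, the chaperones lie on the low side of 0 on both axes, and Ddit4 lies past 2-fold on the horizontal axis only.

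Degradation and translocation genes had a median of -0.17 from the FLAG:Ctrl RIP, and one of -0.31 from the IgG RIP, and none of the 5 was called. Herpud1, which organises the retrotranslocation complex, was 6.24 in the MKRN1-labelled RIP, against 7.03 in the FLAG:Ctrl RIP, 7.09 in the IgG RIP, 6.65 in the FLAG:MKRN1 input, and 6.57 for FLAG:Ctrl input. The MKRN1-labelled RIP was the lowest array and the control RIPs the highest. Edem1, a lectin-like factor that hands misfolded glycoproteins to degradation, was 7.82 in the MKRN1-labelled RIP, against 8.23 in the FLAG:Ctrl RIP, 8.12 in the IgG RIP, 8.12 in the FLAG:MKRN1 input, and 7.84 for FLAG:Ctrl input. Here the MKRN1-labelled RIP lay next to the FLAG:Ctrl input.

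The ligase core of this pathway varied between controls. Sel1l, the adaptor of the ligase HRD1, was 7.15 in the MKRN1-labelled RIP, against 7.32 in the FLAG:Ctrl RIP, 7.81 in the IgG RIP, 7.36 in the FLAG:MKRN1 input, and 6.47 for FLAG:Ctrl input. Its control RIPs lay 0.50 apart, the widest gap of any member kept. Syvn1, which encodes HRD1, stood at -0.17 against the FLAG:Ctrl RIP and lay level with the IgG RIP at 0.00.

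Sec61b, a small subunit of the translocation channel, was the highest of the 5 by its brightest probe set. That probe set gave 10.78 in the MKRN1-labelled RIP, against 10.58 in the FLAG:Ctrl RIP, 10.67 in the IgG RIP, 10.27 in the FLAG:MKRN1 input, and 10.41 for FLAG:Ctrl input. Its 3 probe sets disagreed: the second had differences of -2.47 and -2.54 from the control RIPs, and the third 0.62 and 0.56. Whether these probe sets read near-identical copies of the gene is not known here. Of the 31 members, 29 had 1 probe set, so no such check exists for them.

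Taken against each control RIP alone, 5 members were at least 2-fold lower than the FLAG:Ctrl RIP, where 7.11% of all genes were, and 1, Ddit4, was higher, against 1.62%. Against the IgG RIP 5 were lower, where 6.94% of genes were, and none was higher, against 1.53%. The member medians were -0.44 and -0.33. Without the 14 chaperones, the other 16 kept members had medians of -0.17 and 0.03, and 1 of them, Atf6, was called.

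The comparison with input asked what was recovered relative to the lysate. In the MKRN1-labelled RIP, 3 of 30 members were at least 2-fold below the FLAG:MKRN1 input (Atf6 at -1.36, Dnajc3 at -1.03 and Hspa13 at -1.01), against 5.51% of all genes. None was 2-fold above it, against 2.47%. Hspa5 lay at -0.99 and Hyou1 at -0.91, just inside the mark. Of the 14 chaperones, 11 lay below input and Creld2, Pdia3 and Manf above it, with a group median of -0.36. Over all genes, 5003 of 11502 lay below input, with a median of 0.00.

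The control RIPs ran the other way for the chaperones. In the FLAG:Ctrl RIP 11 of 14 lay above the FLAG:Ctrl input, with a median of 0.13, and in the IgG RIP 13 of 14 lay above the FLAG:MKRN1 input, with a median of 0.19. Over all genes, 5909 and 5833 of 11502 lay above input in these RIPs, with medians of 0.01 and 0.00. None of the 30 members was 2-fold from input in either control RIP, against 1.32% of genes in the FLAG:Ctrl RIP and 1.78% in the IgG RIP. These shares are too small for that count to be read.

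In the PERK arm 7 of 8 genes lay above input in the MKRN1-labelled RIP, with a median of 0.49, as did 5703 of the 11502 genes. Ppp1r15a was 0.83 above input in both the MKRN1-labelled RIP and the IgG RIP, and Ddit3 was 0.72 and 0.58 above it in these RIPs. The sensor gene Eif2ak3 was 0.90 above input in each. These RIPs share the FLAG:MKRN1 input, in which these 3 genes were low.

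**Figure D3:**
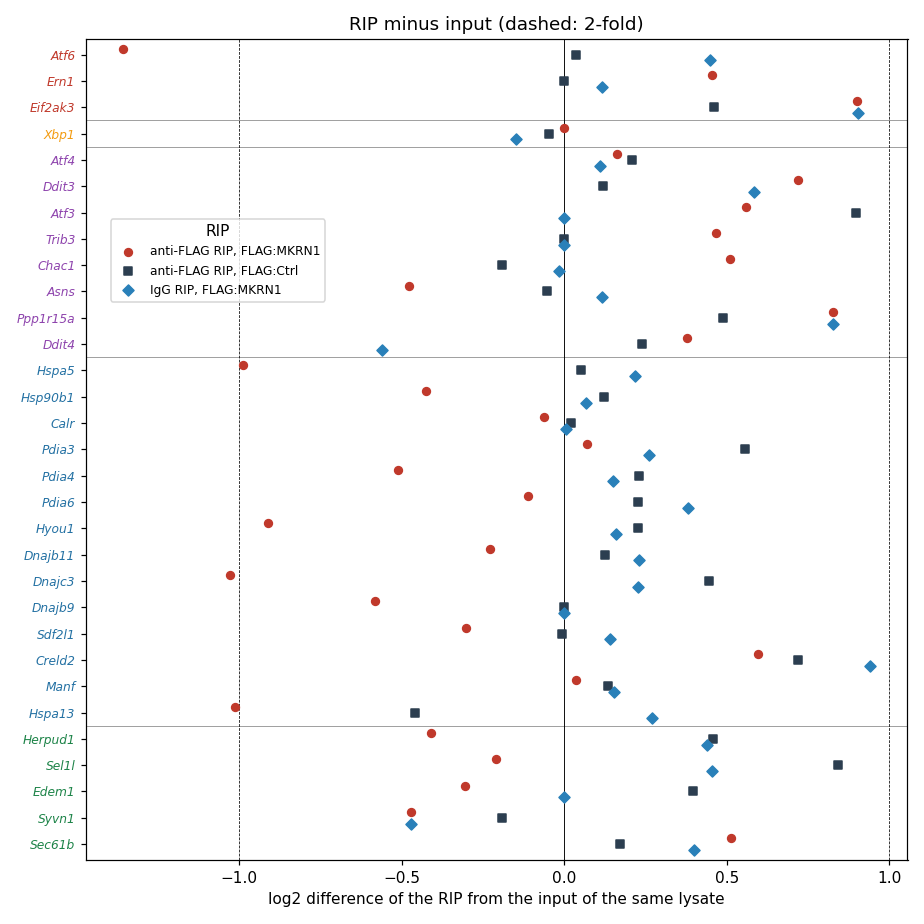
Log2 difference of each RIP from the input of the same lysate (horizontal axis) for the 31 genes, 3 points per gene, with role groups ruled off as before and dashed lines at 2-fold. The MKRN1-labelled RIP (red) lies left of 0 for 11 of the 14 chaperones, where the control RIPs (dark squares and blue diamonds) lie mostly right of 0.

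The inputs compared RNA levels of the 2 lysates. None of the 30 members was 2-fold apart between them, against 1.67% of genes, a share too small for that count to be read. The member median was -0.15, against 0.00 for all genes. Lowest in the FLAG:MKRN1 input was Eif2ak3, with 6.58 in the FLAG:MKRN1 input against 7.49 for FLAG:Ctrl input. Ppp1r15a differed by -0.75 between the inputs, Ddit3 by -0.68 and Atf6 by -0.51. On the high side were Ddit4 at 0.95, Sel1l at 0.89 and Atf3 at 0.45. Hspa5, the usual gauge of the folding response, differed by -0.36, and Xbp1 by -0.05.

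Between the control RIPs no member kept was 2-fold apart, against 0.452% of all genes, a share too small for anything to be read from that count. The median for the FLAG:Ctrl RIP minus the IgG RIP was 0.11 over the members, 22 of which lay above 0, and 0.00 over all genes. This gap is no replicate error, since lysate and antibody both differ.

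Other genes of the pathway were taken as 80 genes in 4 lists. Of these, 74 had a probe set and 72 were kept, of which 42, or 58.3%, lay below both control RIPs. Called lower were 5, or 6.94%, and 1 was called higher, against the shares of 5.36% and 1.09% over all genes. In the list of translocation and glycoprotein folding, 16 of 27 genes lay below both control RIPs, with medians of -0.19 and -0.21, and 1 was called. It was Ppib, a peptidyl-prolyl isomerase of the lumen, 2.65-fold under the FLAG:Ctrl RIP and 2.69-fold under the IgG RIP. In the list of endoplasmic reticulum-associated degradation, 8 of 18 lay below both, with medians of -0.09 and -0.06. Edem3, a relative of Edem1, was the one called, at -1.15 and -1.14. The list of sensor processing and eIF2alpha kinases had medians of -0.29 and -0.20 over 7 genes, of which 5 lay below both control RIPs and none was called.

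The ATF4 amino acid list held the most extreme genes. Phgdh, the first enzyme of serine synthesis, was 10.38 in the MKRN1-labelled RIP, against 8.59 in the FLAG:Ctrl RIP, 8.58 in the IgG RIP, 7.68 in the FLAG:MKRN1 input, and 8.46 for FLAG:Ctrl input. It was 3.46-fold and 3.49-fold above the control RIPs, and was the one gene of these lists called higher. The tRNA synthetase genes Iars (-1.95 and -2.19), Wars (-1.36 and -1.16) and Eprs (-1.23 and -1.03) were called lower, although the second probe set of Iars gave -0.87 against the IgG RIP and was not called. The 20 genes of the list had medians of -0.25 and -0.26, and 13 lay below both control RIPs.

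The feeder markers kept lay a little in the other direction. All 6 lay above both control RIPs in the MKRN1-labelled RIP, with medians of 0.28 and 0.33. The level filter favours such markers, since its mean includes the MKRN1-labelled RIP. Col3a1 was 5.98 there and between 5.74 and 5.81 on the other arrays, against a level of 5.76. Of the markers below the filter, Lum and Dcn also lay above both control RIPs. Pdgfrb (-0.11 and 0.08) and Postn (0.07 and 0.00) did not. Of all genes kept, 3975 of 11502 lay above both. In the dimmest part of the kept genes, cut by mean signal as before, the medians over all genes were 0.09 and 0.09. The part of signal level in the marker differences was not tested. The mean of all 10 fibroblast markers was 5.95 in the MKRN1-labelled RIP, 5.75 in the FLAG:Ctrl RIP, 5.66 in the IgG RIP, 5.78 in the FLAG:MKRN1 input, and 5.95 for FLAG:Ctrl input. The mean of the 10 stem cell markers was 10.55 in the MKRN1-labelled RIP and between 10.76 and 11.03 on the other arrays. The part of feeder or stem cell RNA in the members' differences was not tested.

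**Figure D4:**
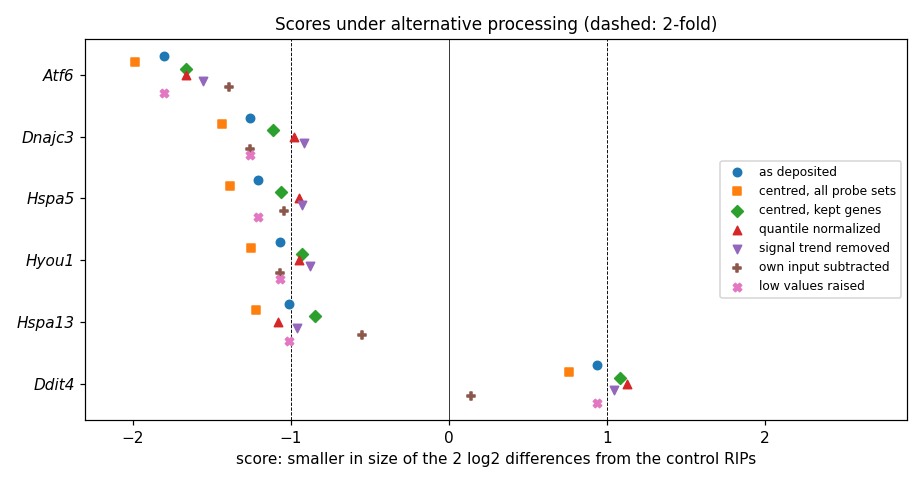
Score of the 5 called members and Ddit4 (horizontal axis, log2) under 7 ways of processing the same arrays, with dashed lines at 2-fold. Among these, raising values under the level filter to it could not change the plotted genes, since none has a value under it. Atf6 stays beyond the lower line throughout, Dnajc3, Hspa5, Hyou1 and Hspa13 lie on both sides of it, and Ddit4 lies between 0.14 and 1.13.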

How the data were processed

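RNA of 5 samples was hybridised to Affymetrix arrays, 1 array per group, with groups taken from the sample titles. The authors' deposited table gives 1 log2 value per probe set, on a scale taken to be log2 because values ran between 2.56 and 14.4. The labels name biotin labelling by standard Affymetrix procedures, and cDNA was made from 10 ng of RNA. How they were background-corrected, summarised and normalized is not given in the sources used here. Of 34760 probe sets, 21640 had 1 gene symbol, 1321 several and 11799 none, and 21553 were matched by gene identifier to the RefSeq gene table of GRCm38.p6.

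Differences of deposited log2 values were computed with pandas 2.3.3 on Python 3.11.15, for the probe set with the highest mean per gene. Genes with a mean at or above the 50th percentile of probe-set means were kept. The call rule was checked on simulated arrays, all with the noise of the difference between the control RIPs (SD 0.243). The real MKRN1-labelled array differed more widely from the control RIPs, with SDs of 0.571 (FLAG:Ctrl RIP) and 0.550 (IgG RIP). The check therefore gives no rate of false calls for these arrays. Per-array values are printed for called members, those past 2-fold from a control RIP and the 2 of each role group with the largest scores, and, chosen after their values were seen, for some others; other pathway genes are named where called. Members and lists were chosen with earlier results of these data known. Precision is limited by the number of arrays. Alternatives changed the scaling, level filter, probe-set rule, fold mark and use of input. Promoters are those of RefSeq; protein sequences were not used here.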

Additional observations from a re-analysis of the deposited data

Results flagged for a closer look

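In 5 members the anti-FLAG RIP lay on opposite sides of its input in the 2 lysates, with the differences at least 2-fold apart. With 1 array each, this contrast was not tested, and 842 of the 11502 genes kept (7.32%) met the same description. Atf6 lay at -1.36 from input in FLAG:MKRN1 lysate and 0.04 in FLAG:Ctrl lysate, which are -1.39 apart. Dnajc3 lay at -1.03 in FLAG:MKRN1 lysate and 0.44 in FLAG:Ctrl lysate, -1.47 apart. Hyou1 was at -0.91 in FLAG:MKRN1 lysate and 0.23 in FLAG:Ctrl lysate, -1.14 apart. Hspa5 was at -0.99 in FLAG:MKRN1 lysate and 0.05 in FLAG:Ctrl lysate, -1.04 apart. Sel1l was at -0.21 in FLAG:MKRN1 lysate and 0.84 in FLAG:Ctrl lysate, -1.05 apart, and its inputs alone were 0.89 apart.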

How the results depend on the processing

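With 1 array per group the differences have no error. Probe-set coverage, transcript length and cross-hybridisation were not examined, and signal near the level filter limits Atf3, Trib3, Hspa13, Herpud1 and Ern1. The count of members called lower, 5 as deposited, was 2 after quantile normalization, 3 with arrays centred on the median of the kept genes, 1 with the trend with signal level removed, 8 at 1.5-fold and 0 at 4-fold. As shares of members and of all genes, these were 6.67% and 3.61%, 10% and 3.52%, 3.33% and 2.81%, 26.7% and 14.4%, and 0% and 0.2%. The count called higher, 0 as deposited, was 1 (Ddit4) after quantile normalization, with kept-gene centring, with the trend removed and at 1.5-fold. Kept-gene centring and trend removal were chosen after the data were seen. The member median against the IgG RIP moved to -0.073 with the trend removed. Centring on all probe sets moved the median of all genes to -0.23 and -0.18 against the control RIPs, and kept-gene centring to 0.14 and 0.14. All 14 chaperones lay below both control RIPs with the first and 12 with the second and after quantile normalization. Of all genes, 70.4%, 33.9% and 45.5% lay below both in these 3 settings. Over all genes, 617 were called lower and 125 higher as deposited, 968 and 64 with the first centring, 405 and 190 with the second, 415 and 183 after quantile normalization, 323 and 178 with the trend removed, 1654 and 548 at 1.5-fold, and 23 and 16 at 4-fold. The PERK arm median against the FLAG:Ctrl RIP was -0.19 with the first, 0.18 with the second. The sensor medians, over Atf6 and Eif2ak3 only, were -1.18 (FLAG:Ctrl RIP) and -0.91 (IgG RIP); they became -0.46 and -0.0051 with no level filter, which adds Ern1, and -1.90 and -1.81 when only genes from the 75th percentile up were kept, which leaves Atf6 alone. With the input of each lysate subtracted first, the sensor median against the FLAG:Ctrl RIP was -0.48 and that of degradation and translocation genes -0.70. Of the other values for medians and counts, 114 moved by less than 0.243 or stayed within 1.5 times. Here 0.243 is the SD over genes of the difference between the control RIPs, which is wide for a median. Within it, the member median against the FLAG:Ctrl RIP went from -0.44 to -0.20 with the trend removed. Against the IgG RIP it went from -0.33 to -0.10 after quantile normalization. Raising values under the level filter to it left every member median unchanged. The 114 is therefore no measure of stability. No paired analysis was possible because each group has 1 array.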
